A study of Mus musculus with 7 samples.

Results

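The subunits of inhibin and activin, their extracellular antagonists and a set of their receptors were examined as the 8 rows of the RefSeq gene table, of 24739 rows in all, whose symbols are *Inha*, *Inhba*, *Inhbb*, *Fst*, *Fstl3*, *Acvr2a*, *Acvr1* and *Tgfbr3*. They were chosen by symbol, and each symbol had 1 row. Inhibins and activins are dimeric ligands of the TGF-beta family that share their beta subunits. A beta subunit paired with another beta subunit gives an activin, which signals through type II and type I receptor kinases to SMAD proteins, and a beta subunit paired with the alpha subunit gives an inhibin, which occupies the type II receptor together with betaglycan and blocks the activin signal. Follistatin and its relative FSTL3 bind activins outside the cell and hold them away from the receptors. In the fetal mouse testis, *Inhba* is known as a product of fetal Leydig cells that acts on Sertoli cells, *Inhbb* as a Sertoli cell gene, and *Fst* as a gene that marks the ovarian rather than the testicular fate.

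RNA-Seq was performed on whole testes at E14.5, with the testes of 1 embryo in each library. Wild-type (WT) embryos gave 3 libraries, and embryos labelled *Glis3* mutant gave 4, all on a C57BL/6 background (n = 3 and n = 4). The mutants were homozygous for *Glis3* zf5, a global null allele that removes an exon needed for DNA binding together with flanking intron, so every cell type carries it and the remainder of the transcript can still be counted. Neither group received an agent, and the comparison asks which genes differ at this age in testes without functional GLIS3.

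Differences in estimated depth were modest but followed the groups by a narrow margin. Depth was estimated from the steps between the lowest FPKM values (fragments scaled to the length of the gene model and the size of the library). Relative to WT replicate 1, it was 0.89 and 0.93 in WT replicates 2 and 3 and 0.79 to 0.87 in the mutants. By this estimate every mutant library was shallower than every WT library. The estimate was read in bins 0.02 wide, so 0.89 in WT replicate 2 and 0.87 in mutant replicates 1 and 3 were neighbouring bins. The steps also carry the library scaling of the deposited FPKM values. On retrotransposon loci fell 3454317 to 4670830 reads, and here the groups overlapped. The sum of all FPKM values ran from 694243 in WT replicate 1 to 1018678 in mutant replicate 3. How many fragments a given FPKM value rests on is unknown. *Glis3* stood at 7.63, 6.89 and 2.91 FPKM in WT replicates 1 to 3, against 2.66 to 3.86 FPKM among the mutants, so that the library labelled WT replicate 3 lay within the range of the mutants. Where results of the 8 genes, their ratios or the related branches moved with this library, they are therefore given with and without it. Those of the cell type lists are given with all libraries only. Sertoli cell genes were present in every library, with a summed level of 339 to 583 FPKM over 8 genes, whereas *Foxl2*, a transcription factor of ovarian supporting cells, had a mean of 0.0213 FPKM in WT and 0.0483 FPKM in mutant libraries.

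All 8 genes were above the filter of a mean of 0.5 FPKM. The fitted difference of each was above 0 in the mutant libraries, as was that of 52.1% of all genes tested. The 3 subunit genes and *Acvr1* were higher in every mutant library than in every WT library, which makes 4 of 8 genes, where 7.31% of the 13988 genes tested were higher in this way and 7.59% were lower. The differences were modest, with log2 fold changes (Mutant minus WT, of FPKM + 0.5) from 0.04 to 0.56 and a median of 0.23, against a median of 0.01 over all genes tested. None of the 8 genes had an adjusted p under 0.05 from limma, a threshold that 0.00715% of the genes tested passed. An unadjusted p under 0.05 was reached by 4 of the 8, *Inha*, *Inhba*, *Inhbb* and *Fst*, all of them higher in the mutant libraries. Of all genes tested, 17% reached it, 8.21% with higher and 8.79% with lower mutant values. *Inha*, *Inhba* and *Fst* also had a log2 fold change of at least 0.5, which makes 3 of 8 against 0.965% of all genes tested. This cutoff was not set in advance and *Fst*, at 0.504, lay just above it, so the count is a description only. With a pseudocount of 1 FPKM the log2 fold change of *Fst* was 0.39. Without the library labelled WT replicate 3 only *Inha* had a log2 fold change of at least 0.5, 1 of 8. Among the 4 genes with an unadjusted p under 0.05 from limma in that fit, *Fst* was replaced by *Tgfbr3*. The shares over all genes were not computed for that fit, so these counts cannot be set against the shares above. In it 722 genes had an adjusted p under 0.05, against 1 with all libraries. Because whole testes were measured, a larger share of the cells that express a gene and more RNA per cell cannot be told apart.

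**Figure D1:**
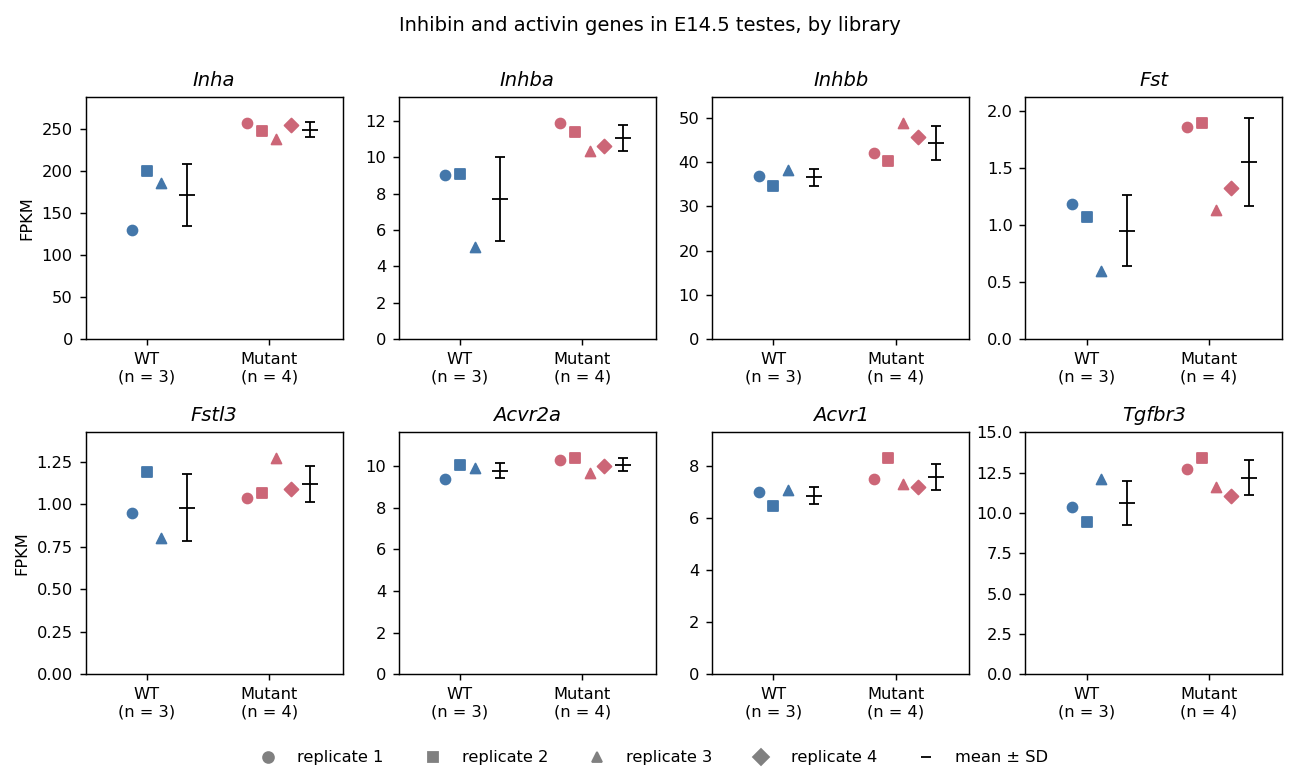
FPKM of each of the 8 genes in the 3 WT (blue) and 4 mutant (red) libraries, with the symbol giving the replicate number and the black bar the mean ± SD; each axis starts at 0. For *Inha*, *Inhba*, *Inhbb* and *Acvr1* all red points lie above all blue points, while *Fst*, *Fstl3*, *Acvr2a* and *Tgfbr3* overlap between the groups.

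Measured per length of gene model, the alpha subunit was by far the most abundant of these transcripts. *Inha* had a mean of 216 FPKM over the 7 libraries, above 97.6% of the genes tested, followed by *Inhbb* with 40.9 FPKM. *Tgfbr3*, *Acvr2a*, *Inhba* and *Acvr1* came next with means of 11.5, 9.95, 9.64 and 7.28 FPKM, and the ranges of each neighbouring pair among these 4 genes overlapped. The order of *Acvr2a* and *Inhba* differed between the groups. *Acvr2a* was the higher in 3 of 7 libraries, which were the WT libraries, and *Inhba* was the higher in every mutant library. The antagonists *Fst* and *Fstl3* were lowest, with 1.29 and 1.06 FPKM, and they also overlapped with each other. *Inha*, *Inhbb* and the pair of follistatin genes did not overlap in range with any gene next to them in this order.

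*Inha* encodes the alpha subunit, which is found in inhibins and not in activins. It spans 75507077 to 75510354 of chromosome 1 (mm10, plus strand). Its level was 130, 200 and 185 FPKM in WT replicates 1, 2 and 3. In mutant replicates 1 to 4 it was 257, 247, 238 and 254 FPKM. The mutant libraries were close to one another and above every WT library, of which replicate 1 was the lowest. This gave means of 172 ± 36.8 FPKM (SD, n = 3) for WT and 249 ± 8.66 FPKM (SD, n = 4), a ratio of 1.45. The log2 fold change was 0.56 (standard error, SE, 0.14, 95% interval 0.25 to 0.87, unadjusted p = 0.00295, limma adjusted p = 0.169), and 1.02% of the genes tested had a larger log2 fold change. Without WT replicate 1 it was 0.37 (limma adjusted p = 0.321).

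The beta subunits differed from each other in level and in spread. *Inhba*, the subunit of activin A, spans 16014475 to 16027211 of chromosome 13 (mm10, plus strand). It had 9.01, 9.08 and 5.04 FPKM in WT replicates 1, 2 and 3. Mutant replicates 1 to 4 had 11.9, 11.4, 10.3 and 10.7 FPKM. The groups did not overlap, and the library labelled WT replicate 3 was far below the other WT libraries. Averages came to 7.71 ± 2.31 FPKM (SD, n = 3) in WT and 11.1 ± 0.712 FPKM (SD, n = 4), and the fitted log2 fold change was 0.54 (SE 0.18, 95% interval 0.12 to 0.96, unadjusted p = 0.0176, limma adjusted p = 0.214). Leaving out the library labelled WT replicate 3 brought this value to 0.28 (SE 0.08, limma adjusted p = 0.1). Among the other 13987 genes tested, those whose centred log2 profile over the 7 libraries was nearest to that of *Inhba*, the gene with the widest range of the 8, were *Myh11*, *Spata21* and *Tagln*, with root mean square differences of 0.06, 0.07 and 0.08 on the log2 scale. *Myh11* and *Tagln* encode contractile proteins of smooth muscle. Their lowest FPKM values were also in the library labelled WT replicate 3, with 4.89 for *Myh11* and 25.3 for *Tagln*, and likeness over 7 libraries is a description only.

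*Inhbb*, the subunit of activin B, spans 119415465 to 119422248 of chromosome 1 (mm10, minus strand). WT replicates 1 to 3 had 36.8, 34.5 and 38.2 FPKM. Mutant replicates 1 to 4 had 42, 40.3, 48.9 and 45.6 FPKM. Here the WT libraries were the tighter group, and the library labelled WT replicate 3 did not stand apart. WT averaged 36.5 ± 1.89 FPKM (SD, n = 3) and the mutants 44.2 ± 3.83 FPKM (SD, n = 4), a ratio of 1.21. The log2 fold change was 0.27 (SE 0.08, 95% interval 0.09 to 0.45, unadjusted p = 0.00853, limma adjusted p = 0.186), and with 1 library left out it stayed between 0.22 and 0.31.

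The sequences upstream of the beta subunit genes are shown because these genes encode interchangeable partners and both were higher in the mutant libraries, while the windows differ in composition. RefSeq (GRCm38.p6, the assembly of mm10) gave a window for 6 of the 8 genes, and 250 bases before the start site were read from each. The *Inhbb* window, chr1:119422249-119422498 on the minus strand, has 68% G and C. The *Inhba* window, chr13:16011601-16011850 on the plus strand, has 43.2% and belongs to a start site 2624 bases upstream of the gene model in the table. The median over all 32851 windows was 52.4%. Capitals mark TATAAA, the core of a TATA box, in *Inhba*, and the GC box GGGCGG, read on the opposite strand, in *Inhbb*.
Inhba: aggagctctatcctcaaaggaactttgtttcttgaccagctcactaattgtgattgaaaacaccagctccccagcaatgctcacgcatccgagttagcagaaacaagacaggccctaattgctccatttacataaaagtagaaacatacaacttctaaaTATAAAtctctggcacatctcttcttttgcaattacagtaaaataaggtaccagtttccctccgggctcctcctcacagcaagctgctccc
Inhbb: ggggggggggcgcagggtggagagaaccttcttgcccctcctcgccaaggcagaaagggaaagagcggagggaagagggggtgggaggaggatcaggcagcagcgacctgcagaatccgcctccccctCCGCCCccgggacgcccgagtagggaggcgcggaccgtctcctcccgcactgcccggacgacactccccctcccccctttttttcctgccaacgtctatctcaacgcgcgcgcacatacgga
In all, 5 short motifs were searched on both strands, and each window shown held 1 match. TATAAA was found in 12.4% of all windows and, of the 8 genes, also in *Fstl3*, and GGGCGG in 32.7% of all windows and also in *Acvr1*, *Acvr2a* and *Fstl3*. GGGGGGT, the core of the site bound by GLIS proteins, occurred in 4.65% of all windows and in none of the 6 windows of these genes. AGATAA, a motif of GATA factors found in 9.99% of windows, was also in none of the 6. AGGTCA, a motif of nuclear receptors found in 14% of windows, was in those of *Inha* and *Fstl3*. The *Inha* window precedes a start site 532 bases inside the gene model, so it does not describe the main start of that gene. The *Inhba* window likewise does not adjoin the gene model that was measured. Whether its TATAAA lies at the distance from a start site where a TATA box works was not examined. These matches are descriptions of the letters and not of binding.

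Since the subunits compete for each other in the formation of dimers, their ratios were compared within libraries. The FPKM of *Inha* was 2.83, 4.59 and 4.28 times that of *Inhba* and *Inhbb* combined in WT replicates 1, 2 and 3. In mutant replicates 1 to 4 this ratio was 4.76, 4.77, 4.01 and 4.52. The groups overlapped, and WT replicate 1 was low while the other WT libraries lay among the mutants. WT averaged 3.9 ± 0.935 (SD, n = 3) and the mutants 4.52 ± 0.356 (SD, n = 4), a difference within the spread of the libraries (log2 difference 0.24, two-sided exact permutation test, p = 0.4, adjusted over the 3 ratios p = 0.514). Without WT replicate 1 the difference was 0.02 (exact permutation test, p = 0.933). The ratio of *Inhba* to *Inhbb* was 0.244, 0.263 and 0.132 in the WT libraries and 0.283, 0.283, 0.212 and 0.234 in the mutant libraries. It did not separate the groups (log2 difference 0.3, exact permutation test, p = 0.457, adjusted p = 0.514), and without the library labelled WT replicate 3 the difference was -0.02. The ratio of the follistatin genes to the beta subunits was 0.0466, 0.052 and 0.0322 in the WT libraries and 0.0537, 0.0573, 0.0405 and 0.0428 in the mutant libraries (log2 difference 0.17, exact permutation test, p = 0.514, adjusted p = 0.514). Without the library labelled WT replicate 3 this difference became -0.03, and with 0.5 FPKM added to each part of the ratio it was 0.02 (exact permutation test, p = 0.857). The smallest p that 3 against 4 libraries allow in this test is 0.0286.

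**Figure D2:**
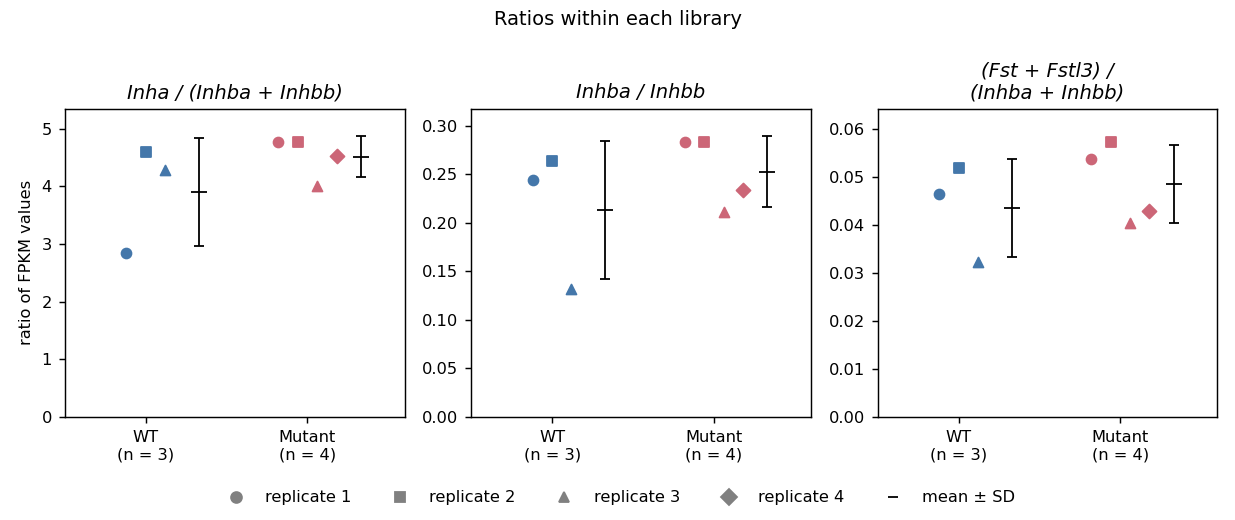
Ratios of FPKM values within each library for the alpha subunit to both beta subunits, *Inhba* to *Inhbb*, and both follistatin genes to both beta subunits, with WT in blue, mutants in red and the mean ± SD in black. In each panel the groups overlap, and the lowest point is WT replicate 1 at 2.83 for the first ratio and WT replicate 3 at 0.132 and 0.0322 for the others.

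The extracellular antagonists were near the low end of the genes tested. *Fst*, which encodes follistatin, spans 114452262 to 114458951 of chromosome 13 (mm10, minus strand). It had 1.18, 1.07 and 0.594 FPKM in WT replicates 1, 2 and 3. Mutant replicates 1 to 4 had 1.86, 1.9, 1.13 and 1.32 FPKM. The groups overlapped through WT replicate 1 and mutant replicate 3, and mutant replicates 1 and 2 were the highest libraries. WT averaged 0.951 ± 0.314 FPKM (SD, n = 3) and the mutants 1.55 ± 0.385 FPKM (SD, n = 4). The log2 fold change was 0.5 (SE 0.2, 95% interval 0.04 to 0.97, unadjusted p = 0.0354, limma adjusted p = 0.263). Without the library labelled WT replicate 3 it came to 0.31 (unadjusted p = 0.134, limma adjusted p = 0.363).

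*Fstl3*, the other follistatin gene, spans 79777274 to 79782630 of chromosome 10 (mm10, plus strand). It had 0.95, 1.19 and 0.8 FPKM in the WT libraries and 1.04, 1.07, 1.27 and 1.09 FPKM in the mutant libraries. WT replicate 2 was above all mutant libraries but mutant replicate 3. Its log2 fold change of 0.13 was about equal to its standard error of 0.13 (95% interval -0.16 to 0.43, limma adjusted p = 0.629). Leaving out single libraries moved this value between 0.04 and 0.23, with the lowest value without the library labelled WT replicate 3.

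The 95% intervals of the fitted differences of all 3 receptor genes included 0. *Acvr2a*, the type II receptor that binds activins and inhibins, spans 48814109 to 48903264 of chromosome 2 (mm10, plus strand). It had 9.36, 10.1 and 9.9 FPKM in the WT libraries and 10.3, 10.4, 9.65 and 9.99 FPKM in the mutant libraries. All 7 libraries lay within a narrow range, and the groups overlapped. Its fitted difference was 0.04 on the log2 scale (SE 0.07, 95% interval -0.11 to 0.19, limma adjusted p = 0.775).

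*Acvr1* encodes a type I receptor that carries signals of bone morphogenetic proteins (BMPs). It spans 58446438 to 58566828 of chromosome 2 (mm10, minus strand). It had 7, 6.49 and 7.1 FPKM in the WT libraries and 7.52, 8.32, 7.32 and 7.21 FPKM in the mutant libraries. Each mutant library was above each WT library, but the gap between the highest WT and the lowest mutant library, 7.1 against 7.21, was smaller than the SD of either group (0.327 and 0.502 FPKM). The log2 fold change was 0.14 (SE 0.08, 95% interval -0.04 to 0.32, limma adjusted p = 0.412).

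*Tgfbr3* encodes betaglycan, the co-receptor through which inhibin binds type II receptors with high affinity. It spans 107106570 to 107289595 of chromosome 5 (mm10, minus strand). It had 10.4, 9.46 and 12.1 FPKM in WT replicates 1, 2 and 3, while mutant replicates 1 to 4 had 12.7, 13.4, 11.6 and 11.1 FPKM. The groups overlapped through the library labelled WT replicate 3, which was above mutant replicates 3 and 4. Its log2 fold change was 0.19 (SE 0.1, 95% interval -0.04 to 0.43, unadjusted p = 0.0938, limma adjusted p = 0.374), and without WT replicate 2 it was 0.12. Without the library labelled WT replicate 3 it was 0.29 (SE 0.1, unadjusted p = 0.0204, limma adjusted p = 0.134).

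A second count of the same libraries was available for the larger genes. The authors counted uniquely mapped reads on each LINE, SINE and LTR element separately from FPKM, and reads of elements that lay in an intron of 1 gene were summed per gene here and scaled to TMM-adjusted library sums of such reads (counts per 1000000, CPM). Of the 8 genes, 4 had a mean of at least 10 such reads: *Inha* with 5 elements, *Acvr2a* with 68, *Acvr1* with 156 and *Tgfbr3* with 175. The other 4 had fewer reads or no such element with a read. The counting did not use strand, so transcripts on the opposite strand cannot be told apart from the gene.

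In the introns of *Tgfbr3* there were 183, 179 and 187 CPM in WT replicates 1 to 3. Mutant replicates 1 to 4 had 225, 217, 206 and 212 CPM. The groups did not overlap, which was the case in the same direction for 5.15% of the 11558 genes tested, and here the library labelled WT replicate 3 lay with the other WT libraries. WT averaged 183 ± 3.65 CPM (SD, n = 3) and the mutants 215 ± 8.23 CPM (SD, n = 4), a log2 fold change of 0.23 (unadjusted p = 0.0122, edgeR adjusted p = 0.264). In the introns of *Inha* there were 34.5, 49.8 and 44.8 CPM in the WT libraries. The mutant libraries had 60.6, 48.6, 59.7 and 60.9 CPM. Mutant replicate 2 was below WT replicate 2, and the other mutant libraries were above all WT libraries, with a log2 fold change of 0.43 (unadjusted p = 0.0134, edgeR adjusted p = 0.273). An unadjusted p under 0.05 with higher mutant values was found for 2 of the 4 genes and for 6.64% of all genes tested, of which 12% reached it in either direction. None of the 4 had an adjusted p under 0.05, as 0.199% of all genes did, and DESeq2 called none either. The introns of *Acvr2a* had 127 to 165 CPM in the WT libraries and 136 to 159 CPM in the mutant libraries (log2 fold change -0.06, edgeR adjusted p = 0.873). Those of *Acvr1* had 174 to 193 CPM and 140 to 199 CPM (log2 fold change -0.03, edgeR adjusted p = 0.952), so the order of the groups seen in *Acvr1* FPKM was not present in these reads.

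**Figure D3:**
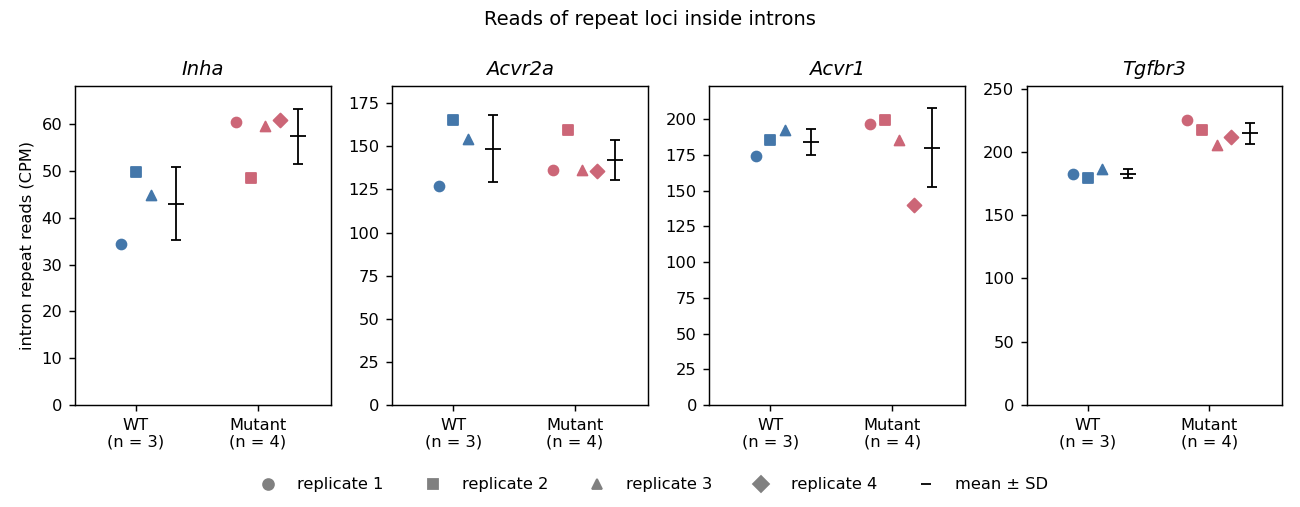
Reads of repeat elements inside introns (CPM) for the 4 genes with enough reads, by library, with WT in blue, mutants in red and the mean ± SD in black. All mutant points of *Tgfbr3* lie above the WT points, 206 to 225 against 179 to 187 CPM, whereas *Inha* overlaps through mutant replicate 2 and *Acvr2a* and *Acvr1* overlap broadly.

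Of 26 further genes of the activin branch, 22 passed the filter. None had an adjusted p under 0.05, 1 had an unadjusted p under 0.05, and the median log2 fold change was 0.05, with 15 of 22 above 0. Among the other subunits, *Inhbc* and *Inhbe* were hardly detected, with means of at most 0.0439 FPKM. No other receptor or co-receptor of the branch reached an unadjusted p under 0.05 in limma. *Acvr2b*, the second activin type II receptor, had 3.55 and 3.1 FPKM in WT and mutant libraries, and *Acvr1b*, the main type I receptor of activin, had 13.7 and 12.6 FPKM (limma adjusted p = 0.624 and 0.58). *Smad2* and *Smad3*, which carry the signal to the nucleus, had log2 fold changes of -0.01 and 0.03 (95% interval of *Smad2* -0.18 to 0.15). The estimates were far less precise for *Tdgf1*, a co-receptor of NODAL, and *Foxh1*, a transcription factor that partners SMAD proteins. Their log2 fold changes were 0.49 and 0.55, with 95% intervals of -0.45 to 1.44 and -0.45 to 1.55, and WT replicate 2 had the lowest level of both, 1.29 and 0.776 FPKM. The 1 gene with an unadjusted p under 0.05, chosen for mention after its values were seen, was *Fstl1*, a follistatin-like gene, with 243 ± 27.5 FPKM (SD, n = 3) and 284 ± 22.8 FPKM (SD, n = 4), in groups that overlapped (limma adjusted p = 0.285). *Igsf1*, also chosen afterwards, was the only one of the 22 with groups that did not overlap. It had 0.968 to 1.28 FPKM in WT and 1.29 to 1.34 FPKM in mutant libraries (limma adjusted p = 0.512). Groups that did not overlap in this direction were found for 7.31% of all genes tested.

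**Figure D4:**
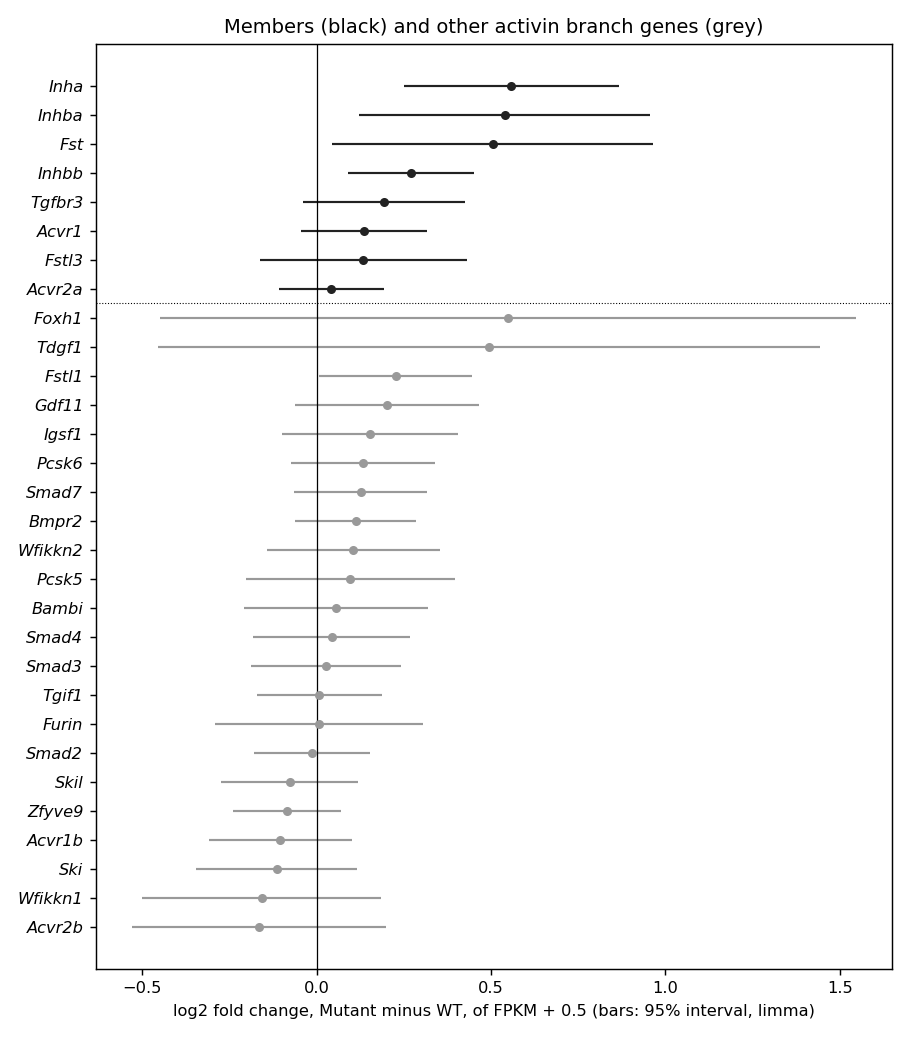
Log2 fold change (Mutant minus WT, of FPKM + 0.5) with its 95% interval from limma for the 8 genes (black) and the 22 other activin branch genes that passed the filter (grey). The intervals of *Inha*, *Inhba*, *Inhbb*, *Fst* and *Fstl1* lie above 0 and all others include 0; none of these genes had an adjusted p under 0.05.

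Genes of the BMP and TGF-beta branches, to which *Acvr1* and *Tgfbr3* also belong, were examined in the same way. Of 22 genes, 21 passed the filter, none had an adjusted or an unadjusted p under 0.05 from limma, and the median log2 fold change was 0.03. *Id1* and *Id3*, target genes of BMP signals, depended on the library labelled WT replicate 3. Their log2 fold changes were 0.22 and 0.18 (limma adjusted p = 0.398 and 0.584), and without that library 0.38 and 0.41 (limma adjusted p = 0.0231 and 0.0145). They were chosen for mention after this was seen, and 722 genes in all had an adjusted p under 0.05 without that library. None of the 8 subunit, antagonist and receptor genes was among the 722. *Inha* had the lowest adjusted p of the 8 in that fit, 0.0589.

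Genes of the cell types that may express the subunits were examined in the same libraries, and none had an adjusted p under 0.05 from limma. All 6 genes of a fetal Leydig cell list had log2 fold changes above 0, from 0.32 to 0.66, with an unadjusted p under 0.05 for 5 of them. Over all genes tested, 52.1% had a log2 fold change above 0, and 8.21% reached this p with higher mutant values. *Insl3*, a hormone of Leydig cells, had 190 to 255 FPKM in WT and 305 to 389 FPKM in mutant libraries (log2 fold change 0.66, limma adjusted p = 0.133). *Cyp11a1*, the first enzyme of steroid synthesis, had 434 to 708 FPKM and 732 to 823 FPKM (log2 fold change 0.55, limma adjusted p = 0.186). The summed level of the list was 1602, 2667 and 1802 FPKM in WT replicates 1, 2 and 3 and 2507 to 3083 FPKM in the mutant libraries. The sum of WT replicate 2 thus lay within the range of the mutants. The part of these cells in the higher subunit levels was not tested.

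The 8 Sertoli cell genes had log2 fold changes with a median of 0.13 and none had an unadjusted p under 0.05 from limma, and their summed level overlapped between the groups, 339 to 531 FPKM against 447 to 583 FPKM. All 5 interstitial genes were also without an unadjusted p under 0.05, with summed levels of 289 to 313 FPKM and 289 to 375 FPKM. All 6 germ cell genes had log2 fold changes below 0, with a median of -0.72, but none had an adjusted p under 0.05 from limma, the lowest being 0.136. An unadjusted p under 0.05 was found for 4 of them, where 8.79% of all genes tested reached it with lower mutant values. The intervals of *Dppa3* (-1.27 to 0.13) and *Nanog* (-0.89 to 0.46) included 0. Their summed level was 1215, 820 and 527 FPKM in WT replicates 1, 2 and 3 and 433 to 561 FPKM in the mutant libraries. In *Ddx4*, *Dazl* and *Sall4* every mutant library was below every WT library, as was the case for 7.59% of all genes tested. FPKM are relative to the whole library, so a smaller share of germ cell RNA and larger shares of somatic RNA cannot be told apart.

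**Figure D5:**
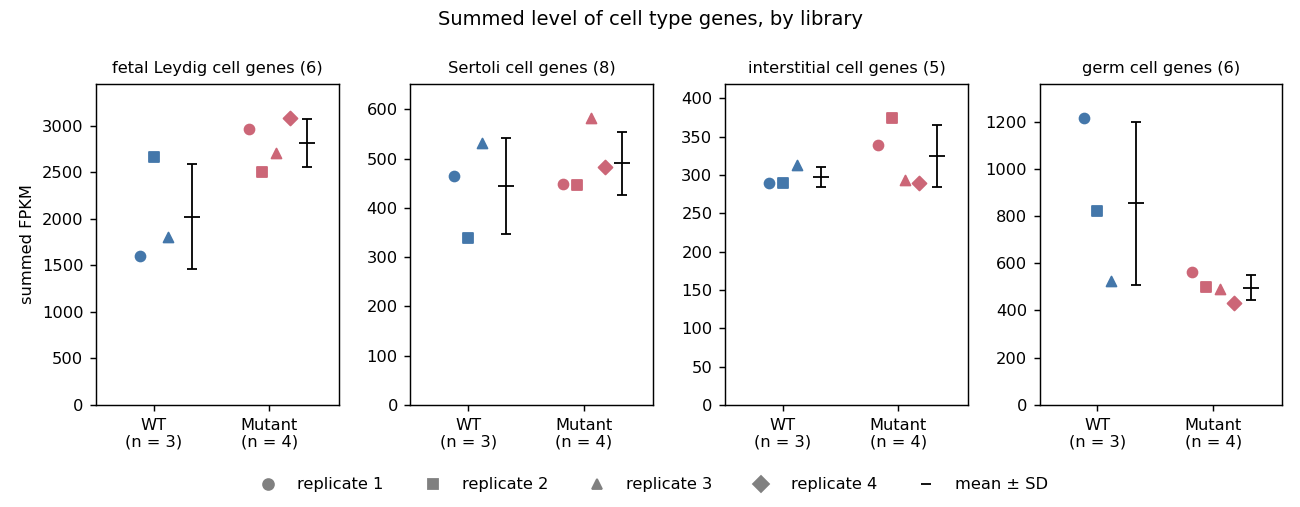
Summed FPKM of the fetal Leydig cell (6), Sertoli cell (8), interstitial cell (5) and germ cell (6) genes in each library, with WT in blue, mutants in red and the mean ± SD in black. The Leydig cell sum of WT replicate 2, 2667 FPKM, lies among the mutants, and the germ cell sum of WT replicate 3, 527 FPKM, lies within their range of 433 to 561 FPKM.

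Other lists bear on a mixture of tissues. A list of 4 adrenal cortex genes had 16.1 to 26.4 FPKM in WT and 24.4 to 33.7 FPKM in mutant libraries when summed. All 4 had log2 fold changes above 0, with a median of 0.4, as did 52.1% of all genes tested. An unadjusted p under 0.05 from limma was found for 2 of them, where 8.21% of all genes tested reached it with higher mutant values. The lowest limma adjusted p of this list was 0.225. Macrophage genes, 4 of 5 in the table, had 19.6 to 22.7 FPKM and 21.8 to 29.9 FPKM. For 5 mesonephric genes the sums were 1.97 to 3.14 FPKM and 1.17 to 2.05 FPKM, with *Pax2*, a defining gene of the ducts, at means of 0.00545 and 0.00406 FPKM. *Lhx1*, of the same list, was lower in every mutant library (log2 fold change -0.79, limma adjusted p = 0.178). Endothelial genes had 55.8 to 65.8 FPKM and 57 to 61.7 FPKM, ovarian supporting cell genes 15.8 to 16.9 FPKM and 16.6 to 19.7 FPKM, skeletal muscle genes 3.56 to 27 FPKM and 3.04 to 47.5 FPKM, and red blood cell genes 1758 to 3794 FPKM and 958 to 2713 FPKM. The groups overlapped in each of these sums, and the part of these cells in the values of the 8 genes was not tested.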

How the data were processed

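RNA-Seq data of whole E14.5 testes from 3 WT and 4 mutant embryos were used, with groups and replicate numbers from the sample labels. The authors aligned reads to mm10 with TopHat2 2.0.12 and made FPKM values per RefSeq gene with Cuffquant and Cuffnorm; the deposited FPKM values include the library scaling of that workflow. The deposited counts are unnormalized uniquely mapped reads per RepeatMasker element, made by the authors with HTSeq-count. The header of both tables lacks a tab between 2 sample names and was read as the names it spells.

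For 13988 genes whose mean reached 0.5 FPKM, log2(FPKM + 0.5) was tested with limma 3.58.1 (R 4.3.3, variance trend, two-sided), adjusted by Benjamini-Hochberg over all of them at 0.05; this scale understates the change of low genes. Reads of elements wholly in 1 gene of GENCODE M21 and outside annotated exons (bedtools 2.31.1) were summed per gene and tested by the quasi-likelihood method of edgeR 4.0.16 (TMM) in the 11558 genes averaging 10 reads or more. For ratios, a two-sided exact permutation test was used. Both models were first checked against simulated data. The genes, lists and tests were chosen with earlier results of these data known. All 8 genes were named. Other genes were to be named if past the threshold or, failing that, at an unadjusted p under 0.05 in groups that do not overlap. Exceptions chosen after their values were seen are stated. *Inhbc*, *Inhbe*, *Acvr2b*, *Acvr1b*, *Smad2*, *Smad3*, *Tdgf1*, *Foxh1*, *Dppa3*, *Nanog*, *Pax2* and *Foxl2* were also named without meeting this rule, as descriptions of their lists. The nearest profiles were taken for the gene of widest range.

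Alternatives for FPKM were a pseudocount of 0.1 or 1, dropping the filter or raising it to 2 FPKM, quantile normalization, median centring, no trend, array weights, a replicate block and removal of single libraries. Those for element reads were DESeq2 1.42.0, its size factors, library size alone, no filter, exons included, the block and removal of single libraries. Those for ratios were a pseudocount of 0.5, the block and removal of single libraries. Element reads scaled to the whole table, and overlap of the groups with a library removed, were added after seeing the data.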

Additional observations from a re-analysis of the deposited data

Results flagged for a closer look

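Of 15 sets of 4 mutant values checked, in 2 a single library lay apart from the other 3 by more than a gap test at the 95% level allows, and chance gives about 1 in 20. For reads of repeat elements inside *Inha* introns, mutant replicate 2 had 48.6 CPM against 59.7 to 60.9 CPM in the other mutants. For *Acvr2a* introns, mutant replicate 2 had 159 CPM against 136 CPM in each of the others. The FPKM values of both genes in this library did not stand apart.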

How the results depend on the processing

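All 126 fold changes of the 8 genes under the alternatives were above 0 and none had an adjusted p under 0.05. They are refits of the same 7 libraries and do not count as independent results. With 1 library left out, 3 to 4 of the 8 had an unadjusted p under 0.05 and 4 to 5 had groups that did not overlap. The shares over all genes were not computed for these fits. Groups of fewer libraries also separate more easily, so the counts do not show that the result is stable. The genes behind these counts changed: without WT replicate 3, *Fst* no longer had an unadjusted p under 0.05 and *Tgfbr3* did. The number of all genes called was 1, and it was 4 without a filter, 3 with quantile normalization, 0 with the replicate block and 1 to 722 with 1 library left out. The number of other activin branch genes with an unadjusted p under 0.05 was 0 without a filter, with quantile normalization, without a trend and with array weights, 2 with the block, and 0 to 1 with 1 library left out. For the BMP and TGF-beta branches it was 1 with quantile normalization, 2 with median centring, 2 with the block and 0 to 4 with 1 library left out, and 0 to 2 of these genes were called. Same-numbered libraries deviated together for numbers 1 and 3 (correlations across genes of 0.2 and 0.23) but not for number 2 (-0.18), so the numbers were not read as pairs. With the replicate block the fold changes of *Inha*, *Inhba* and *Inhbb* were 0.55, 0.56 and 0.25, each with an adjusted p of 0.353 from limma; with the block, ratios can reach a p of 0.25 at the least. Without WT replicate 3 the log2 difference of the ratio of *Inhba* to *Inhbb* was -0.016, and that of the follistatin genes to the beta subunits -0.033; over all single libraries they reached from -0.016 to 0.48 and from -0.033 to 0.31. The ratio of *Inha* to the beta subunits differed by 0.024 without WT replicate 1 and by up to 0.37 without another library, and a pseudocount of 0.5 in each part brought that of the follistatin genes to 0.018. For element reads in introns, the number of the 4 genes with an unadjusted p under 0.05 was 1 without a filter and 1 to 2 with 1 library left out. The fold change of *Acvr1* introns was 0.075 with the block, 0.0049 without WT replicate 3 and 0.078 without mutant replicate 4, in a range of -0.081 to 0.078 with 1 library left out, and that of *Acvr2a* introns was 0.016 without WT replicate 2, in a range of -0.168 to 0.016. The causes were not tested. With 3 and 4 libraries, low levels of *Fst* and *Fstl3* and an unknown number of fragments limit the precision.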
